A study of Homo sapiens with 6 samples.

Results

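The genes described here are 8 genes of cholesterol metabolism, HMGCS1, SQLE, INSIG1, IDI1, FDFT1, DHCR7, MVD and SC5D. They were chosen by symbol as genes driven by the transcription factor SREBP2, and all 8 were among the 16199 rows of the count table. INSIG1 is a regulator and the others are enzymes of synthesis, so no gene of cholesterol uptake is among them. Uptake genes are given below from a separate list. The counts come from H1, a long-established human embryonic stem cell line, edited with CRISPR-Cas9 at DICER1, which encodes the endonuclease that trims pre-microRNAs into mature form. There were 3 genotypes with 2 libraries each. The first was wild-type. The second, labelled hemizygous, carried S1344L Dicer, and its samples are also labelled pm/fs. The third carried S1344L homozygously and is also labelled pm/pm. What all groups shared was culture lacking doxycycline for 10 days, crosslinking by 2 doses of UV (254 nm, 150 mJ/cm2 each) and a pull-down with an antibody against Ago2 (iCLIP), from 2 dishes of 15 cm per sample. The number of clones per genotype is not given in the sources used here, and the labels do not tell whether both libraries of a genotype had cultures of their own. The p-values therefore measure the spread between these libraries alone, which may be technical. Levels are read counts in libraries labelled Ago2 iCLIP, and the shares of Ago2 binding and of transcript abundance in them were not tested.

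Cholesterol is built from acetyl-CoA through mevalonate, isoprenoid units, squalene and a chain of sterols. When sterol in the endoplasmic reticulum falls, the escort SCAP carries the precursors SREBP1 and SREBP2 to the Golgi, where proteases release their active parts. When sterol is plentiful, INSIG proteins hold SCAP back, and INSIG1 is itself a target of SREBP, which closes a feedback loop. Proliferating stem cells make cholesterol for new membrane and also take it up from lipoproteins.

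Promoter sequence is shown as a description, and its part in the members' levels was not tested. RefSeq windows (GRCh38.p14) of the 250 bases before an annotated start were found for 6 of the 8 members, all but SQLE and FDFT1. All 6, HMGCS1, INSIG1, IDI1, DHCR7, MVD and SC5D, held the letters CCAAT on either strand in at least 1 window. Over all genes the share was 37.0% of the 27305 with a window (32.0% of 35116 windows). IDI1 had 3 windows, HMGCS1, DHCR7 and SC5D 2 each, and INSIG1 and MVD 1 each. Window 2 of HMGCS1 and of DHCR7 and window 1 of IDI1 held no match. A gene with more windows has more room for a match, so the shares by gene are not on equal terms. CCAAT is the core of the box bound by NF-Y, a known partner of SREBP at sterol genes. A form of the sterol regulatory element, TCACNCCAC on either strand, was in the window of 0 of the 6 members and of 1.09% of genes (0.883% of windows). At so low a share, 0 of 6 does not set the members apart, and other forms of the element were not searched. SREBF2, the gene of SREBP2, held it. A match is a description of letters, not a bound site. The first listed window of 3 members that moved with the replicate number (HMGCS1, INSIG1, DHCR7), of MVD, which was not called in any comparison, and of SREBF2 is printed 5′ to 3′ on the gene's strand, with the matches to the 2 motifs in capitals. The windows lie at chr5:43313413-43313662 (minus strand, 1 of 2 windows), chr7:155297628-155297877 (plus), chr11:71448394-71448643 (minus, 1 of 2 windows), chr16:88663092-88663341 (minus) and chr22:41832855-41833104 (plus).
HMGCS1: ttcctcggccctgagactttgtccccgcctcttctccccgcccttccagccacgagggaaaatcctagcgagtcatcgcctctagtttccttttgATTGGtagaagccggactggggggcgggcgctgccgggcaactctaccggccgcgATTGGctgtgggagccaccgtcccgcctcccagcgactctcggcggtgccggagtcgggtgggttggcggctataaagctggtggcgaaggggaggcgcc
INSIG1: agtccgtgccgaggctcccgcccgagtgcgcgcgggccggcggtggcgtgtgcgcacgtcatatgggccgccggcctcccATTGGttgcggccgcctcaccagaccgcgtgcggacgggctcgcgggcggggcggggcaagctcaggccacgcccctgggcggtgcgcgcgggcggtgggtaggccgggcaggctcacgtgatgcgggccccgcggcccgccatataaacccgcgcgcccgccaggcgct
DHCR7: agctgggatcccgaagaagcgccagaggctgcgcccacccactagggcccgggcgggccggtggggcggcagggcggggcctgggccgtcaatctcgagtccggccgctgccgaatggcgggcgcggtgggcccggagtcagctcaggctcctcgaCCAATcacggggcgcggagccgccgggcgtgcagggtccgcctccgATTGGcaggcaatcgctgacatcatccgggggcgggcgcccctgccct
MVD: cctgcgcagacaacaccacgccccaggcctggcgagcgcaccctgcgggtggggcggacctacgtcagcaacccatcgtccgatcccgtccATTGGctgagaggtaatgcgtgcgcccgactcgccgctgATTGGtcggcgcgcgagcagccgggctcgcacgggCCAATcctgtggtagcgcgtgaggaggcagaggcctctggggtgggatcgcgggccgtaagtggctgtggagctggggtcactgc
SREBF2: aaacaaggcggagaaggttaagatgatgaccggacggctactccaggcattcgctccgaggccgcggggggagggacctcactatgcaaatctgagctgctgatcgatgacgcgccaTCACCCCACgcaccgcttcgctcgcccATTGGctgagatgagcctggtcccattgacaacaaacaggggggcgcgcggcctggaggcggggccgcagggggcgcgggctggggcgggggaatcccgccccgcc
The CCAAT matches ended 151 and 96 bases before the start of HMGCS1 and 166 bases before that of INSIG1. In the printed DHCR7 window they ended 90 and 44 bases before a start inside the gene, whose 5′ end is at chr11:71449043. For MVD they ended 155, 116 and 81 bases before the start. MVD thus held 3 matches. In IDI1, which moved with the replicate number, matches ended 128, 125 and 83 bases before the start of window 2. In its window 3 they ended 211 and 113 bases before the start. In SC5D they ended 52 bases before the start in window 1 and 133 in window 2. In SREBF2 the element ended 125 bases before the start and the CCAAT box 102 bases before it.

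Libraries held 38.2 M to 52.9 M counts, and depth did not follow the replicate number: wild-type replicate 1 was the deepest library, while hemizygous replicate 1 held 39.7 M counts and replicate 2 held 51.6 M. Of 8 pluripotent stem cell markers, all 8 were measured, with summed levels of 7535 to 8874 CPM. CPM are counts scaled to library size with TMM factors. Unlike depth, the TMM factors did follow the replicate number. They were 0.980 (wild-type), 0.966 (hemizygous) and 0.983 (homozygous) in replicate 1. In replicate 2 they were 1.024, 1.021 and 1.027, and the cause of this split was not tested. Of 12 stromal markers, 9 were in the table, and COL3A1, DCN and LUM were not. Of 8 neuroectoderm markers 6 were in the table, of 8 mesendoderm markers 2, and of 5 hepatocyte markers 1 (AFP). Fewer cells of a type and less RNA per cell cannot be told apart in such bulk samples.

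Within every genotype, the library numbered 1 held more counts than the library numbered 2 for HMGCS1, SQLE, INSIG1, IDI1, DHCR7 and SC5D. In a fit that holds genotype equal, libraries numbered 2 were lower by 1.51-fold (SC5D) to 1.98-fold (IDI1). Homozygous replicate 1 lay between the other replicate 1 libraries and the replicate 2 libraries. FDFT1 and MVD did not follow the number. No member was called between genotypes. In the values that follow, the library numbered 1 is given before the library numbered 2.

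HMGCS1 (chr5:43287470-43313412), the synthase that makes HMG-CoA at the entry to the pathway, stood at 693 and 357 CPM in wild-type libraries, 661 and 297 in hemizygous ones and 396 and 278 in homozygous ones. The 3 replicate 1 libraries were all above the 3 replicate 2 libraries. Genotypes overlapped, since homozygous replicate 1 was above wild-type replicate 2. The mean of HMGCS1 was 525 ± 237 CPM (SD, n = 2) for wild-type, 479 ± 258 CPM for hemizygous and 337 ± 83.1 CPM for homozygous cells.

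MVD (chr16:88651940-88663091), the decarboxylase that gives the first isoprenoid unit, stood at 66.2 and 62.0 CPM in wild-type libraries, 55.6 and 54.9 in hemizygous ones and 56.2 and 57.1 in homozygous ones. Here the replicates of a genotype lay close together. All 4 mutant libraries were below both wild-type libraries. IDI1 (chr10:1039152-1056704), the isomerase that turns that unit into its reactive partner, stood at 163 and 73.1 CPM in wild-type libraries, 154 and 64.1 in hemizygous ones and 89.0 and 61.8 in homozygous ones. IDI1 had the widest span of the 8 members, 2.64-fold between the highest and the lowest library, while MVD had the narrowest, 1.21-fold. The gene of IDI1 overlaps IDI2-AS1, which has no row of counts, and WDR37. For replicate 2 against replicate 1, WDR37 had a log2 fold change of 0.03 (SE 0.10, adjusted p = 0.861 by edgeR). The IDI1 pattern was not seen in the WDR37 row, and sharing of reads was not tested.

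FDFT1, the squalene synthase that commits the pathway to sterols, was in a row of few reads, 82 to 155 counts per library. Its level was 2.99 and 2.10 CPM in wild-type libraries, 2.61 and 2.37 in hemizygous ones and 2.49 and 2.95 in homozygous ones. Neither genotype nor replicate number separated these libraries. SQLE, the epoxidase that acts on squalene and a rate-limiting step, stood at 242 and 157 CPM in wild-type libraries, 247 and 142 in hemizygous ones and 184 and 134 in homozygous ones. It followed the replicate number as HMGCS1 did, with no overlap between the numbers.

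SC5D (chr11:121292771-121313410), a desaturase near the end of the pathway, stood at 246 and 153 CPM in wild-type libraries, 249 and 158 in hemizygous ones and 191 and 139 in homozygous ones. DHCR7 (chr11:71427287-71449043), the reductase that makes cholesterol from its last precursor, stood at 176 and 105 CPM in wild-type libraries, 159 and 96.0 in hemizygous ones and 121 and 91.6 in homozygous ones. For both genes the lowest replicate 1 library was homozygous, and it was still above every replicate 2 library. INSIG1 (chr7:155297878-155310235), the sterol-sensing anchor of SCAP, stood at 135 and 62.4 CPM in wild-type libraries, 130.1 and 58.6 in hemizygous ones and 73.1 and 55.0 in homozygous ones. INSIG1 showed the same order of libraries as the enzymes HMGCS1 and IDI1, with wild-type replicate 1 highest and homozygous replicate 2 lowest. INSIG1-DT, a transcript that overlaps INSIG1, had a log2 fold change of 0.00 (SE 0.15) for replicate 2 against replicate 1.

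**Figure D1:**
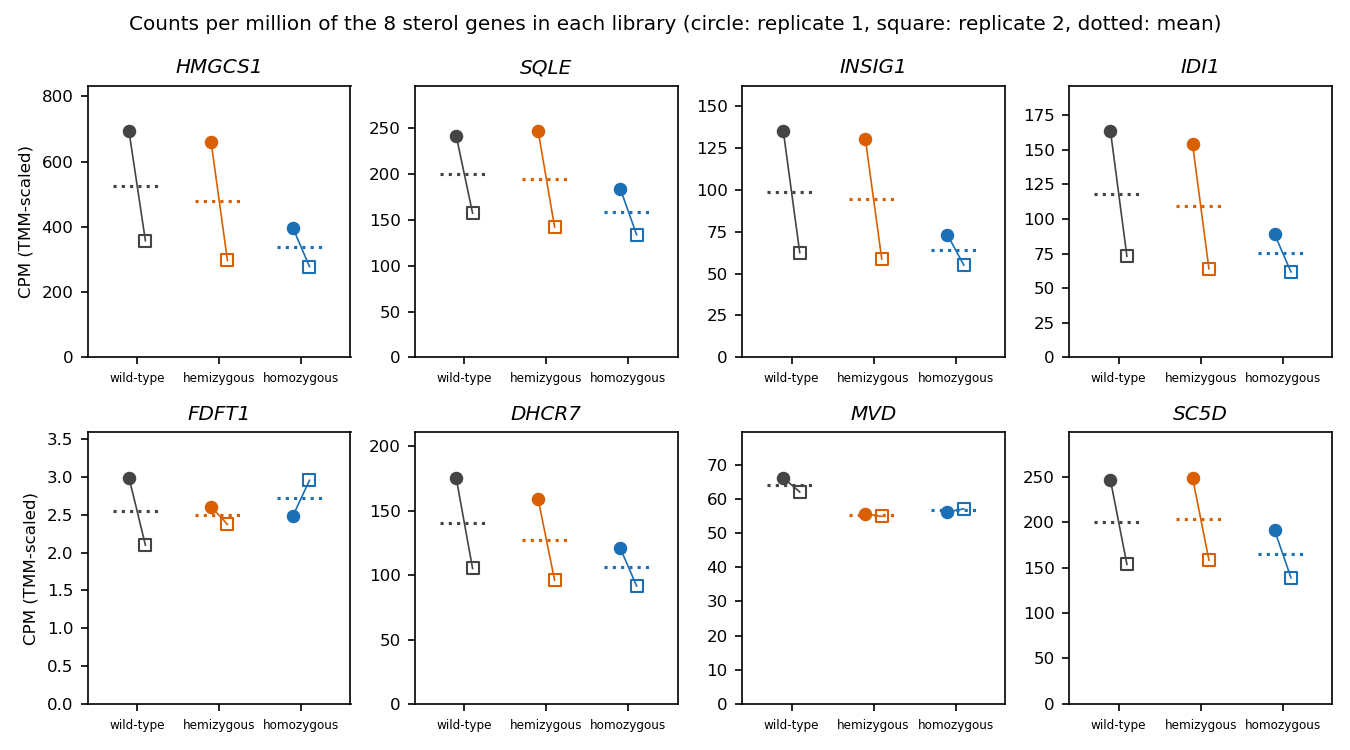
CPM (y axis, from 0, scaled with TMM factors) of each of the 8 genes in the 6 libraries, by genotype on the x axis. Circles are replicate 1, squares replicate 2 and dotted lines the mean of the 2; the circle lies above every square in the 6 panels other than FDFT1 and MVD.

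Across the 6 libraries, log2 CPM of the 6 genes HMGCS1, SQLE, INSIG1, IDI1, DHCR7 and SC5D correlated with each other at a Pearson r of 0.971 to 0.997 in the 15 pairs. These points share 6 libraries that fall mainly into replicate numbers, so the correlation is given as a description. FDFT1 correlated with these 6 at 0.299 to 0.410 and MVD at 0.269 to 0.456. The mean of the 8 members, each centred on its own mean log2 CPM, was 0.51 in wild-type replicate 1, 0.42 in hemizygous replicate 1 and -0.04 in homozygous replicate 1. It was -0.22, -0.32 and -0.35 in the replicate 2 libraries of the same genotypes. The homozygous replicate 1 library therefore stood between both sets.

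The replicate number was compared over all 6 libraries with genotype in the model. By edgeR's quasi-likelihood test, 6 of the 8 members were called lower in replicate 2 at an adjusted p under 0.05, and 0 were called higher. Over all genes, 12% were called lower, 8.5% higher and 20.5% in either direction, so a large part of the table moved with the number. With upper-quartile scaling the split over all genes was 1294 lower to 2155 higher, in place of 1945 to 1377. The 6 called members were also those with an unadjusted p under 0.05 (38.6% of all genes), and all 8 were below 0 (49.8% of all genes). IDI1 fell by 0.99 on the log2 scale (SE 0.14, adjusted p = 0.0122), INSIG1 by 0.89 (SE 0.15, adjusted p = 0.0139) and HMGCS1 by 0.87 (SE 0.12, adjusted p = 0.0120). SQLE fell by 0.63 (SE 0.09), DHCR7 by 0.62 (SE 0.09) and SC5D by 0.60 (SE 0.08), each with an adjusted p of 0.0120 to 0.0122. FDFT1 had a log2 fold change of -0.13 (SE 0.20, adjusted p = 0.656). MVD had -0.03 (SE 0.07, adjusted p = 0.791), and 0.04 with upper-quartile or library-size scaling. The median of the 8 members was -0.62, against 0.00 for all genes. The same 6 members lay below without overlap, lower in all 3 replicate 2 libraries than in any replicate 1 library, which held for 20.9% of all genes. None lay above without overlap (18.7% of all genes). The calls rest on the hemizygous pair: without hemizygous replicate 1, or without hemizygous replicate 2, 0 members were called (and 1 and 3 of all genes), with the median of the members at -0.56 and -0.57. The direction was lower in all 6 of these genes each time.

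The members' median log2 difference, replicate 2 minus replicate 1, was -0.71 for wild-type, -0.76 for hemizygous and -0.44 for homozygous cells, while the median of all genes was -0.01, 0.01 and -0.01. IDI1 was 2.24-fold higher in replicate 1 in wild-type, 2.41-fold in hemizygous and 1.44-fold in homozygous cells. For SC5D the same ratios were 1.60, 1.57 and 1.38. With 1 pair per genotype, a difference between genotypes in this step cannot be tested.

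**Figure D2:**
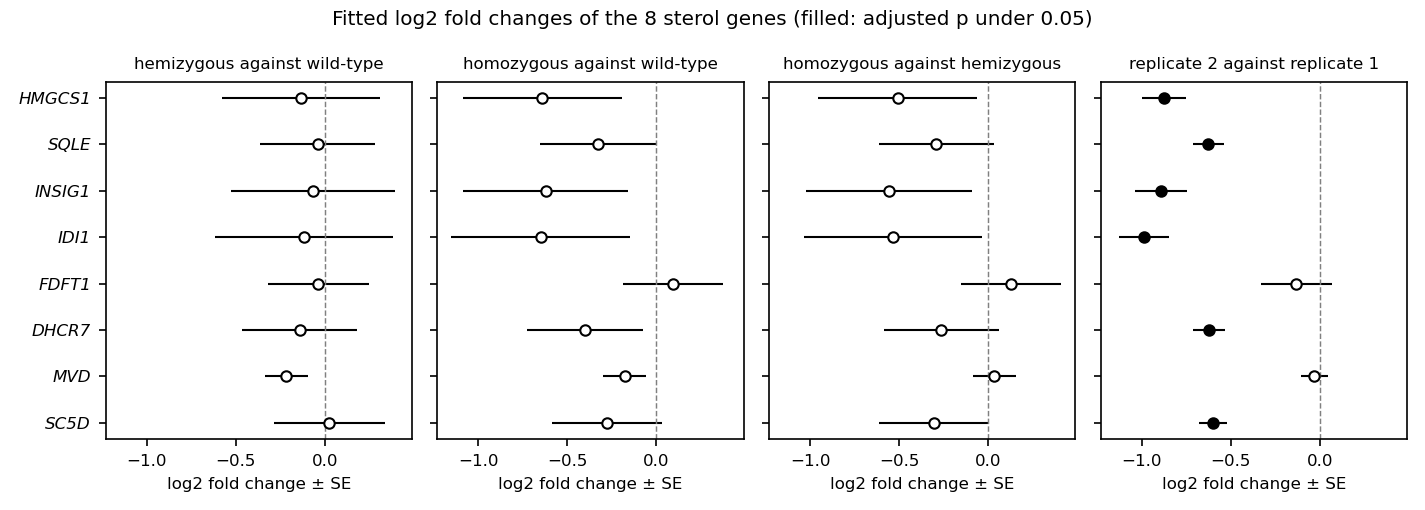
Fitted log2 fold change (x axis) with its standard error for each of the 8 genes in 3 genotype comparisons and for replicate 2 against replicate 1. The replicate number is in the model of the replicate panel only, so standard errors in the genotype panels include the spread between the numbers. Filled points have an adjusted p under 0.05 by edgeR; the 6 filled points are all in the replicate panel, between -0.99 and -0.60.

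In homozygous against wild-type cells 7 of the 8 members had values below 0, and none passed the test. The log2 fold change was -0.65 for IDI1 (SE 0.50), -0.64 for HMGCS1 (SE 0.45), -0.62 for INSIG1 (SE 0.46), -0.40 for DHCR7 (SE 0.33), -0.33 for SQLE (SE 0.32), -0.28 for SC5D (SE 0.31), -0.18 for MVD (SE 0.12) and 0.09 for FDFT1 (SE 0.28). None was called by edgeR's quasi-likelihood test (adjusted p = 1.00 for each, 0% of all genes called), and 0 of 8 had an unadjusted p under 0.05, against 2.69% of all genes. DESeq2 and limma-voom called 0 members too. The median was -0.37, and 50.7% of all genes were below 0. Between libraries of the same number the median was -0.47 for replicate 1 and -0.19 for replicate 2. Without wild-type replicate 1 the median was 0.03, and without homozygous replicate 2 it was -0.20, so its sign rests on that wild-type library. Stromal markers lay the same way in this comparison. All 9 were below 0, with a median of -0.44, 5 were lower without overlap (13.6% of all genes), 0 were called, and 1, PDGFRB, had an unadjusted p under 0.05 by edgeR (-0.85, SE 0.33). The summed level of these 9 was 1177 and 1010 CPM in wild-type and 816 and 889 CPM in homozygous libraries. Of the 8 stem cell markers 7 were above 0, with a median of 0.17, 3 higher without overlap (14.2% of all genes) and 0 called. Of the 6 neuroectoderm markers 3 were below 0 and 3 above, with 0 called. The part of any of these markers in the members' values was not tested.

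In hemizygous against wild-type cells the members other than MVD lay closer to 0 than in homozygous against wild-type cells. The lowest log2 fold change was that of MVD at -0.21 (SE 0.12) and the highest that of SC5D at 0.03 (SE 0.31). HMGCS1 had -0.13 (SE 0.44) and INSIG1 -0.07 (SE 0.46). None was called (0% of all genes), and 0 of 8 had an unadjusted p under 0.05 (0.87% of all genes). The median was -0.09 with 7 of 8 below 0, where 50.9% of all genes were below 0. Leaving out wild-type replicate 1 gave 0.36, hemizygous replicate 2 gave 0.31, wild-type replicate 2 gave -0.38 and hemizygous replicate 1 gave -0.51, so its sign rests on single libraries.

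MVD was the member with the smallest spread and the only one in which mutant and wild-type libraries did not overlap. It was lower in both hemizygous and both homozygous libraries than in either wild-type library. Such separation downward was seen in 9.21% of all genes for hemizygous and 13.6% for homozygous cells, and in 4.58% for all 4 mutant libraries together. No member was separated upward (8.13%, 14.2% and 4.29% of all genes). With both mutants averaged and set against wild-type, its log2 fold change was -0.20 (SE 0.10), with an unadjusted p of 0.100 by edgeR and an adjusted p of 1.00. In that comparison 0 of 8 members had an unadjusted p under 0.05 (1.94% of all genes), and 7 of 8 were below 0 (51.8% of all genes). The comparisons share the same wild-type libraries.

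Homozygous set against hemizygous cells gave -0.56 for INSIG1 (SE 0.46), -0.53 for IDI1 (SE 0.50) and -0.51 for HMGCS1 (SE 0.45) on the log2 scale. DHCR7 had -0.26 (SE 0.33), SQLE -0.29 (SE 0.33), SC5D -0.30 (SE 0.31), MVD 0.04 (SE 0.12) and FDFT1 0.13 (SE 0.28). Again 0 were called, by edgeR, DESeq2 or limma-voom, and 0 of 8 had an unadjusted p under 0.05 (0.765% of all genes). The median was -0.30 with 6 of 8 below 0 (50.1% of all genes). It was 0.15 without hemizygous replicate 1, and between libraries of the same number it was -0.41 for replicate 1 and -0.08 for replicate 2. MVD was higher in both homozygous than in both hemizygous libraries, a separation seen in 11% of all genes, and no member was separated downward (10.4%). Of the 9 stromal markers 8 were below 0 here, with a median of -0.48, 6 lower without overlap and 0 called. In hemizygous against wild-type cells 5 were below 0, with a median of -0.04. Of the 6 neuroectoderm markers 5 were below 0 here, with a median of -0.32, 5 lower without overlap and 0 called. Of the 8 stem cell markers 3 were below 0. In hemizygous against wild-type cells all 6 neuroectoderm and all 8 stem cell markers were above 0, none called.

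The rest of the pathway was read from lists of 15 other enzymes of cholesterol synthesis, 8 genes of uptake and transport, 6 regulators, 7 genes of sterol disposal and 8 of fatty acid synthesis. Between replicate numbers, 9 of the 15 enzymes were called lower and 1 higher, against 12% and 8.5% of all genes. Their median log2 fold change was -0.34 (0.00 for all genes). CYP51A1, which demethylates lanosterol, stood at 6.83 and 3.56 CPM in wild-type libraries, 5.68 and 2.24 in hemizygous ones and 4.10 and 1.94 in homozygous ones. The replicate 1 libraries were all above the replicate 2 libraries. CYP51A1 fell by 1.12 on the log2 scale (SE 0.16) in replicate 2, LSS, which closes the sterol rings, by 0.75 (SE 0.08), MSMO1 by 0.76 (SE 0.15) and LBR by 0.69 (SE 0.09). MVK, NSDHL and ACAT2 fell by 0.41, 0.34 and 0.32. GGPS1, which leads away from sterols to prenyl groups on proteins, was the enzyme called higher, at 0.33 (SE 0.09, adjusted p = 0.0483). FDPS at -0.19, HSD17B7 at -0.30, PMVK at 0.23, TM7SF2 at 0.14 and EBP at 0.00 were not called.

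Of the 8 uptake and transport genes, 3 were called lower in replicate 2 and 0 higher (12% and 8.5% of all genes), with a median of -0.39. STARD4, a carrier of sterol in the cytosol, fell by 0.57 (SE 0.11, adjusted p = 0.0202 by edgeR) and NPC1, which moves cholesterol out of lysosomes, by 0.52 (SE 0.12). LIPA, the lysosomal lipase, had -0.66 (SE 0.23) and was not called.

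Of the 6 regulators, 1 was called, where 20.5% of all genes were called in either direction. SREBF2 stood at 402 and 405 CPM in wild-type libraries, 385 and 348 in hemizygous ones and 399 and 336 in homozygous ones, a log2 fold change of -0.13 (SE 0.08) for replicate 2. SREBF1, the gene of SREBP1, had -0.36 (SE 0.14), SCAP -0.00 (SE 0.09) and INSIG2, a relative of INSIG1, -0.30 (SE 0.15), none called. INSIG2 was highest in homozygous replicate 1, at 27.0 CPM, against 12.6 to 17.7 in the other libraries. MBTPS2, the Golgi protease that makes the last cut of SREBP, was the regulator called, and fell by 0.65 (SE 0.09).

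Of the 8 fatty acid genes, the arm driven mainly by SREBP1, 7 were called lower in replicate 2 (12% of all genes), with a median of -0.47. SCD, the desaturase of stearate, fell by 0.82 (SE 0.09) and FASN, the fatty acid synthase, by 0.70 (SE 0.11). ACACA, which makes malonyl-CoA, fell by 1.83 (SE 0.34), and ACSS2 at -0.35 was not called. SCD, FASN and ACACA had the largest falls of the 8, and the other called genes of this arm fell by 0.32 to 0.52. Of the 7 genes of sterol disposal, 0 were called (20.5% of all genes) and 4 had an unadjusted p under 0.05 (38.6% of all genes). Their median was -0.19. With upper-quartile or library-size scaling APOE and NR1H2 were called higher. ABCA1, the exporter of cholesterol induced by LXR, stood at 37.7 and 20.9 CPM in wild-type libraries, 46.9 and 13.6 in hemizygous ones and 8.53 and 12.2 in homozygous ones. ABCA1 was thus lowest in homozygous replicate 1, unlike the 8 members.

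Called lower were 9 enzymes, 3 uptake genes and 7 fatty acid genes with all libraries. The counts were 7, 3 and 6 with upper-quartile or library-size scaling, 6, 1 and 6 without wild-type replicate 1 and 5, 1 and 4 without wild-type replicate 2. They were 11, 5 and 8 without homozygous replicate 1, 0, 0 and 0 without hemizygous replicate 1 and 0, 0 and 1 without hemizygous replicate 2. With those scalings 7.99% and 8.06% of all genes were called lower in place of 12%. The share over all genes was 4.36% without wild-type replicate 1, 4.23% without wild-type replicate 2, 20.3% without homozygous replicate 1, 0.00617% without hemizygous replicate 1 and 0.0123% without hemizygous replicate 2, so the list counts moved with the calls over the whole table. In the genotype comparisons, 0 pathway genes of any of these lists were called by edgeR. For homozygous against wild-type cells, 14 of the 15 enzymes and 7 of the 8 uptake genes were below 0. So were 4 of the 6 regulators, 4 of the 7 disposal genes and all 8 fatty acid genes (50.7% of all genes). In that order, 0, 1, 1, 2 and 1 genes had an unadjusted p under 0.05 by edgeR (2.69% of all genes). For hemizygous against wild-type cells 11, 6, 3, 4 and 6 were below 0 (50.9% of all genes).

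**Figure D3:**
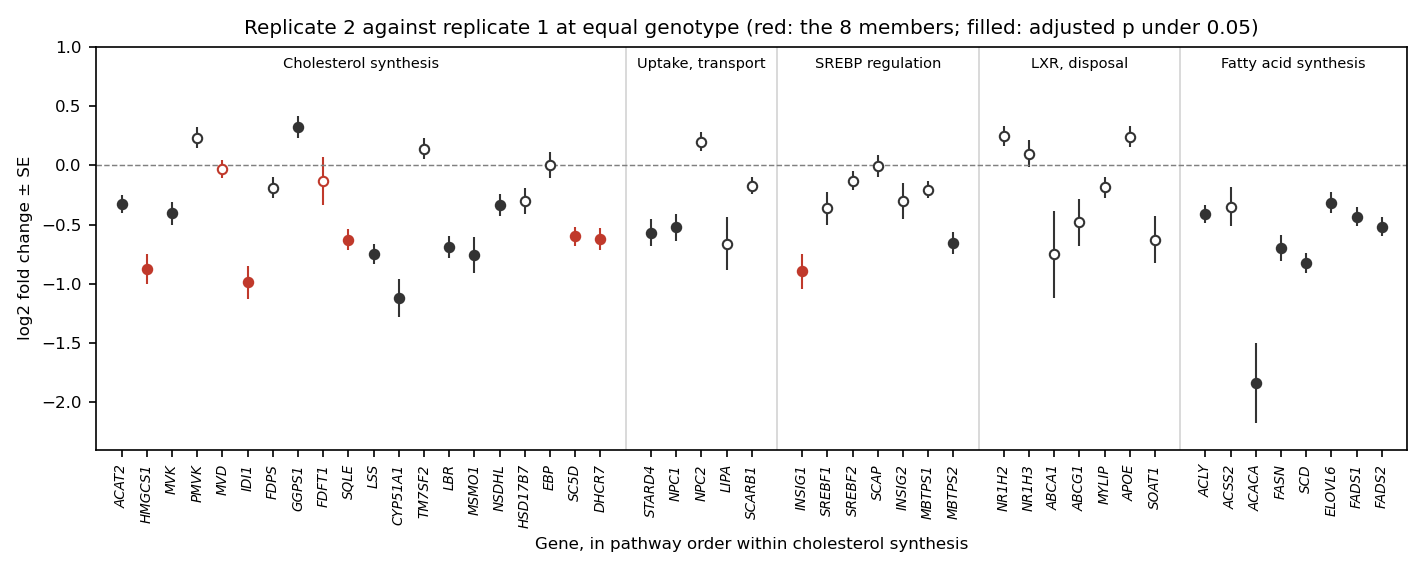
Log2 fold change with its standard error (y axis) of replicate 2 against replicate 1 at equal genotype for sterol and fatty acid genes (x axis), by role. Red marks the 8 members and filled points have an adjusted p under 0.05; HMGCS1, INSIG1 and IDI1 lie between -0.99 and -0.87, while MVD, EBP and SCAP lie near 0.

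Markers of other cell types were read beside this. In replicate 2, 3 of 9 stromal markers were called lower (COL1A1, FBN1 and POSTN) and 0 higher, against 12% and 8.5% of all genes. The summed level of the 9 was 816 to 1177 CPM in replicate 1 and 889 to 1010 CPM in replicate 2 libraries, which overlap. With upper-quartile scaling 2 were called lower and 2 higher, and without homozygous replicate 1 the counts were 7 and 1. AFP, made by liver and endoderm, was called lower too, at 1.30 to 4.41 CPM in replicate 1 and 0.742 to 1.11 CPM in replicate 2, and the other 4 liver markers are not in the table. Of the 8 stem cell markers, 0 were called and 3 had an unadjusted p under 0.05, near the share of all genes (38.6%). None of the 6 neuroectoderm or 2 mesendoderm markers was called, with 0 and 1 at an unadjusted p under 0.05. The part of these markers in the sterol result was not tested.

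Likeness to the members' mean was read as Pearson r of log2 CPM over the 6 libraries, among 10031 genes at a mean of 10 CPM or more. IDI1, itself a member, ranked 1, and the 5 most alike genes other than members came next. They were TPX2, a spindle assembly factor (Pearson r = 0.999), RAD1, of the DNA damage checkpoint clamp (0.998), TTL, which adds tyrosine to tubulin (0.998), MAPK14, the p38 kinase (0.998), and PPP1R16B, a phosphatase subunit (0.997). TPX2 stood at 327 and 255 CPM in wild-type libraries, 317 and 251 in hemizygous ones and 275 and 249 in homozygous ones. Its pattern was the same in order and much smaller in size, since the SD of log2 CPM was 0.18 for TPX2 and 0.63 for IDI1. In all, 16.6% of these genes reached an r of 0.9, and so did 21 of the 41 other pathway genes at that level. STARD4 had an r of 0.987, LBR 0.981, SREBF2 0.595 and MVD, as a member, 0.424. These correlations rest on 6 libraries shared by all genes.

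**Figure D4:**
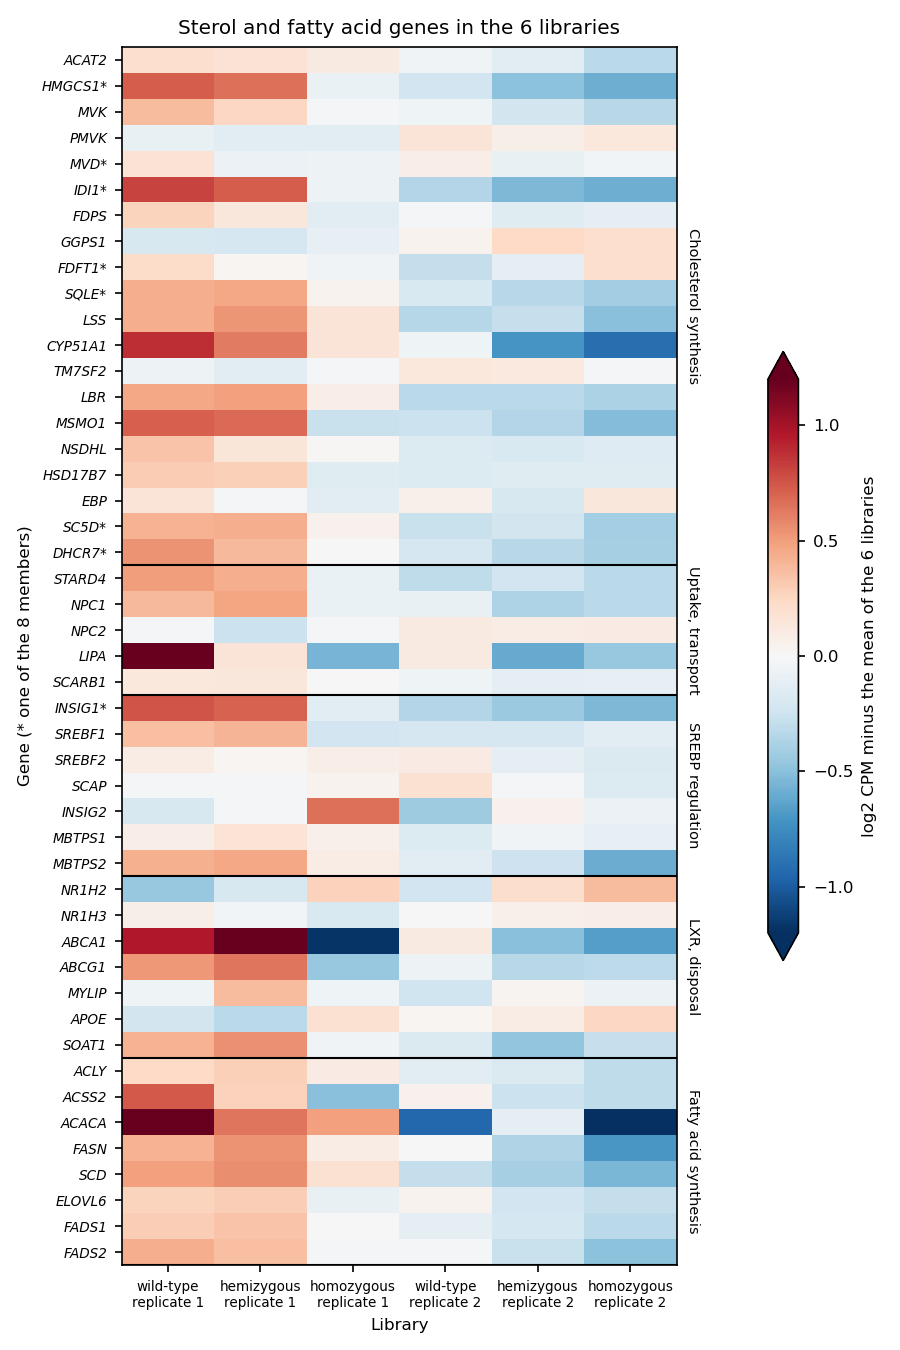
Log2 CPM minus each gene's mean over the 6 libraries (colour) for sterol and fatty acid genes (rows, by role) in the libraries (columns, replicate 1 first). HMGCS1, IDI1 and INSIG1 are red in wild-type and hemizygous replicate 1, pale in homozygous replicate 1 and blue in the replicate 2 libraries.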

How the data were processed

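The deposited table gives whole-number read counts per gene, not normalized, for 6 libraries. The build, hg38, is from the submitters' processing notes. Not given in the sources used here are the aligner, the counter, the annotation and whether strand or molecular identifiers were used, so overlapping genes may share reads. Row totals start at 132. Columns were tied to samples by their descriptions, and 0 columns were left unused.

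Counts were filtered with filterByExpr (all 16199 rows passed, the 8 members included), scaled with TMM factors and fitted in edgeR 4.0.16 (R 4.3.3, quasi-likelihood F test), with a mean per genotype over all 6 libraries. For replicate 2 against replicate 1 the number was added to that model. Benjamini-Hochberg adjustment ran over all genes, with calls under 0.05. The standard error is the fold change over the root of F. SDs are over 2 libraries. FDFT1 has few counts, and so have CYP51A1 and ACACA in their lowest library (79 and 68), so counting error weighs on them.

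The alternatives tried were scaling by RLE, upper quartile or library size, no filter, a minimum of 20 counts in 2 libraries, the tests of limma-voom (limma 3.58.1) and DESeq2 1.42.0, a fit on only the genotypes compared, a block for replicate number, and dropping each library in turn. The code was tested on simulated counts. Gene positions and promoters are from RefSeq, GRCh38.p14. All members and some list genes (SREBF2, SREBF1, INSIG2 and SCAP among them) were named by rule, with the 5 genes most like the members' mean. Called list genes were named only in part, and in the fatty acid arm those named had the largest falls. Further uncalled genes were picked with their values known. A few list genes enter the counts but are not reported here. Members and lists were chosen with earlier results of these data known.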

Additional observations from a re-analysis of the deposited data

Results flagged for a closer look

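The difference between replicate numbers had opposite signs in the genotypes for 2 members. FDFT1 changed by -0.502 (log2, replicate 2 minus replicate 1) in wild-type, by -0.134 in hemizygous and by 0.243 in homozygous libraries. MVD changed by -0.0938, -0.0191 and 0.0237. Each value comes from 1 pair of libraries, and the difference between genotypes was not tested.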

How the results depend on the processing

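The count of members called in each of the 4 genotype comparisons was 0 under every alternative run. For replicate 2 against replicate 1 it was 6 under every alternative other than leaving out 1 library, where it ran from 0 (without hemizygous replicate 1 or 2) to 6, also without both homozygous libraries, an alternative chosen after seeing the data. MVD, not called, had 0.044 with upper-quartile and 0.039 with library-size scaling. Leaving out 1 library moved the log2 values between genotypes. In hemizygous against wild-type cells the members' median ran from -0.51 to 0.36, and these genes changed sign: DHCR7 -0.54 to 0.28, FDFT1 -0.25 to 0.25, HMGCS1 -0.81 to 0.43, IDI1 -0.88 to 0.58, INSIG1 -0.74 to 0.60, SC5D -0.33 to 0.41 and SQLE -0.48 to 0.31. In homozygous against wild-type cells the members' median ran from -0.65 to 0.032, and these genes changed sign: DHCR7 -0.71 to 0.020, FDFT1 -0.12 to 0.38, IDI1 -1.10 to 0.050, INSIG1 -1.06 to 0.043, SC5D -0.57 to 0.11 and SQLE -0.59 to 0.020. For both mutants against wild-type the members' median ran from -0.52 to 0.22, and these genes changed sign: DHCR7 -0.58 to 0.15, FDFT1 -0.19 to 0.32, HMGCS1 -0.77 to 0.17, IDI1 -0.84 to 0.32, INSIG1 -0.78 to 0.32, SC5D -0.41 to 0.26 and SQLE -0.45 to 0.16. For homozygous against hemizygous cells the members' median ran from -0.61 to 0.15, and these genes changed sign: DHCR7 -0.58 to 0.15, HMGCS1 -0.97 to 0.18, IDI1 -1.03 to 0.24, INSIG1 -1.02 to 0.13, SC5D -0.59 to 0.060 and SQLE -0.63 to 0.16. For the replicate numbers, FDFT1 ran from -0.32 to 0.069 and MVD from -0.057 to 0.015. The cause was not tested. The genes called over all rows for the replicate number were 3322, from 3182 to 3449 with other scalings or tools, and 1 to 6266 with a library left out. DESeq2 called 7, 10, 10 and 10 genes in the genotype comparisons, where edgeR called 0.

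In a fit with a replicate block, 0 members were called in any genotype comparison and the median of the members was -0.10 (hemizygous), -0.34 (homozygous), -0.22 (both mutants) and -0.27 (homozygous against hemizygous). The block called 1, 0, 0 and 1 of all genes. Deviations of same-numbered libraries correlated across genes at 0.741 (wild-type and hemizygous), 0.357 (wild-type and homozygous) and 0.476 (hemizygous and homozygous). The labels do not say what the number stands for, and with 2 pairs per comparison it was not taken as a pairing.

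Few counts limit the precision of FDFT1, at 82 in its lowest library, and why its row is low was not tested. A lone library of a genotype was assumed to vary like the others.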
